A study of Gallus gallus with 6 samples.

Results

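Expression in the middle piece of the embryonic chicken cochlear duct was compared with that in the proximal piece, using 4 of the 6 RNA libraries of the series. The middle piece had 2 libraries and the proximal piece 2, 1 of each in a first and in a second set, as the columns of the authors' table name them. The 2 distal libraries served to estimate the spread and for side by side values. All groups were chicken cochlea at embryonic day 6.5, and the labels name no strain, allele or treatment for any of them. Each duct had been cut into pieces of about the same size, and a library came from pieces of 1 region pooled across ducts, with the number of embryos per pool unstated. The labels mention separate biological replicates without saying how the pools were formed, so p-values measure the spread between these libraries. The middle and proximal pieces each held parts of both the sensory and the secretory epithelium of the duct.

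The bird's cochlear duct carries the basilar papilla, its hearing organ, opposite the tegmentum vasculosum, a secretory epithelium. Hair cells of the papilla turn sound into electrical signals, supporting cells surround them, and both arise from a SOX2-expressing prosensory epithelium under the action of factors such as ATOH1. Position along the duct decides which sound frequency a hair cell is tuned to, with high frequencies sensed near the proximal end. At the proximal end the duct adjoins the saccule, a vestibular organ whose sensory patch, the macula, is loaded with otoconia, small mineral particles. Gradients of BMP signalling and of retinoic acid along the duct are known to affect the positional identity of chick hair cells.

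The levels are RPKM (read numbers divided by the length of the gene and the library's total of aligned reads) from the authors' table. Differences are middle minus proximal on the log2(RPKM + 1) scale, taken within each set. A difference of 1 is a 2-fold difference in RPKM + 1, and every 2-fold count below is on that scale. A gene can thus differ more than 2-fold in RPKM in both sets without being counted, as FGF18, NOG and FGF20 did. The libraries held 23537713 (first set) and 66072315 (second set) alignments in the middle piece and 14489623 and 73918748 in the proximal piece. One read per kilobase was worth 0.0425 and 0.0151 RPKM in the middle libraries and 0.0690 and 0.0135 RPKM in the proximal ones, so low levels in the first set are the least precise. Of 17684 table entries, 12559 had 1 RPKM or more in 2 or more libraries and were tested.

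The sets stood further apart than the pieces. Along the leading principal component (63.4% of the variance) the sets fell on opposite sides. There the first-set middle library scored -35.7 and the first-set proximal library, which stood apart, -66.5, whereas in the second set the middle (43.1) and proximal (46.5) libraries lay close together. The difference between pieces had an SD over genes of 0.685 in the first set and 0.305 in the second, and medians of 0.17 and -0.02. Over all tested genes the differences of the 2 sets correlated at -0.056, a description over genes that share libraries. In bulk samples such as these, fewer cells of a type and less RNA per cell cannot be told apart. Markers of the labelled tissue were present in every library. SOX2, a prosensory transcription factor gene, had 88.1 and 64.8 RPKM in the middle piece and 88.5 and 42.9 in the proximal one, and the epithelial adhesion gene EPCAM 247 and 155 against 153 and 167.

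OTOL1 and OTOP1, genes of otoconia, OCM2 and CALB2, genes of hair cell calcium-binding proteins, the homeobox gene GBX2 and the retinoic acid synthesis gene ALDH1A3 led the genes that were lower in the middle than in the proximal piece in both sets. Genes higher in the middle piece in both sets were led by APOA1, FGFR3 and TECTB. In all, 28 of 12559 tested genes (0.223%) reached a 2-fold difference in both sets with the middle piece higher, and 56 (0.446%) with it lower. Of these, 16 and 49 carry a gene symbol. Without regard to size, the middle piece was the higher one in both sets for 2613 genes (20.8%) and the lower one for 1836 (14.6%). With library medians set equal this split turned to 1918 and 2778, and with quantile normalization to 2260 and 2462.

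No gene passed the test. Limma called 0 of 12559 genes (0%) higher and 0 (0%) lower in the middle piece at an adjusted p below 0.05, and 111 genes had an unadjusted p below 0.05. With the library set as a block in the model, limma again called 0 (0%) in each direction, with 484 genes below an unadjusted p of 0.05. The lowest adjusted p with the block was 0.0780, shared by OCM2, APOA1, OTOL1, OTOP1 and FGFR3, and GBX2 followed at 0.0924. Each SE and adjusted p below is from this blocked fit, and the statements of higher and lower describe the libraries. At this size the second set by itself had 57 genes higher and 95 lower, and the first set by itself 1038 and 574. Opposite differences of at least 2-fold were seen for 8 genes, of which 1, TMEM93, carries a symbol (36.3 and 19.3 RPKM in the middle piece, 87.7 and 8.96 in the proximal piece).

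**Figure D1:**
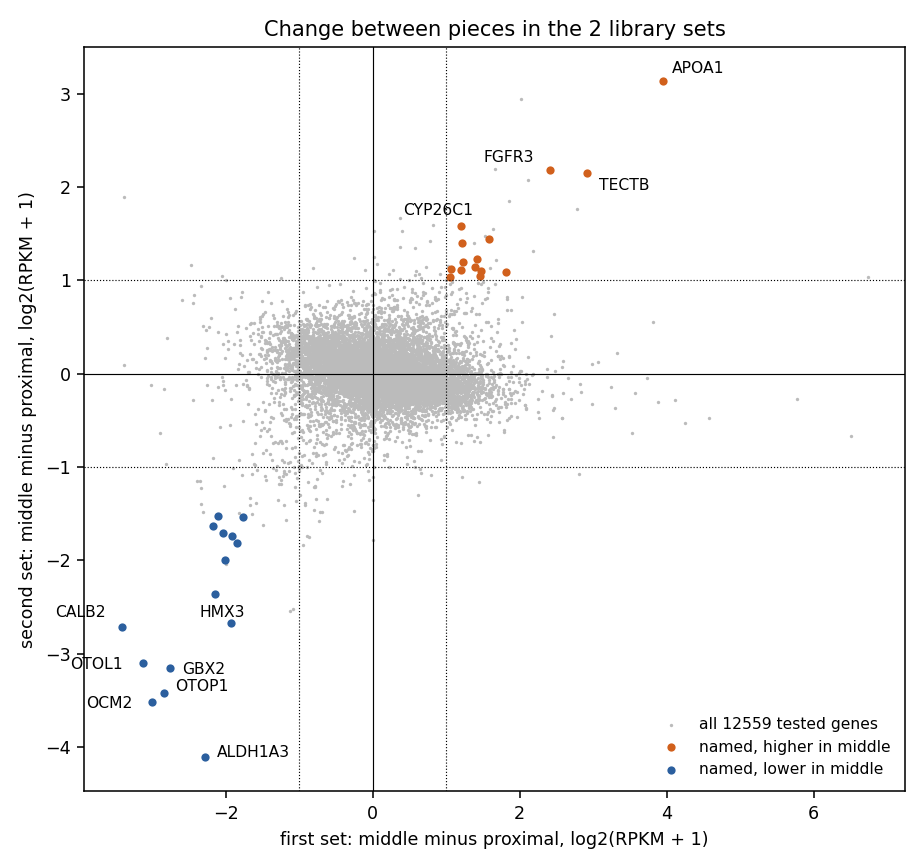
Difference between middle and proximal pieces on the log2(RPKM + 1) scale in the first set (horizontal) and in the second set (vertical), 1 point per tested gene, dotted lines at 2-fold. The cloud of 12559 genes is wider along the first-set axis (SD 0.685, against 0.305), and the genes named by size lie at upper right (APOA1 at 3.94 and 3.13) and lower left (OCM2 at -3.0 and -3.52).

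Blood, vessel and connective tissue markers also differed between the pieces. For comparison, 14.6% of all tested genes were lower in both sets and 20.8% higher. Of 16 tested red blood cell genes 10 were lower in the middle piece in both sets and 2 higher, with medians of -0.53 in the first set and -0.24 in the second. Their summed level was 2390 and 1637 RPKM in the middle piece, against 5915 and 2936 in the proximal piece. Globin genes were a large share of this sum. The embryonic globin gene HBZ had 194 and 119 RPKM in the middle piece and 405 and 278 in the proximal piece, and HBE 188 and 151 against 434 and 291. HBG1 had 864 and 535 RPKM against 1650 and 983. The other lower members were CA2 (-1.36 and -0.74), KLF1 (-0.45 and -0.29), FECH (-0.17 and -0.18) and TAL1 (-0.14 and -0.11). RHCE and TFRC were the 2 higher ones, and LMO2, SPTB, TMCC2 and UROD went opposite ways in the sets. Of 13 leukocyte genes 9 were lower in both sets and 0 higher (summed level 90.2 and 77.2 RPKM against 112 and 84.1). Of 17 endothelial genes 9 were lower and 0 higher (87.2 and 127 RPKM against 132 and 129). The second-set sums of both lists thus lay close between the pieces, and the second-set medians were -0.31 and -0.20. Mesenchyme and cartilage genes had 17 of 32 lower and 4 higher, with summed levels of 1100 and 1795 RPKM in the middle piece and 1273 and 1988 in the proximal one. COL5A2, a fibrillar collagen gene, had 32.4 and 57.8 RPKM in the middle piece and 51.1 and 106 in the proximal piece. The part of these cell types in the results that follow was not tested.

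Hair cell genes were lower in the middle piece as a group. Of 45 genes listed, 41 were in the table and 28 tested. Of these 14 were lower in both sets and 4 higher, beside 14.6% and 20.8% of all genes. At least 2-fold lower in both sets were 8 members, beside 0.446% of all genes. The list medians were -0.47 in the first set and -0.39 in the second, and the summed level was 301 and 270 RPKM in the middle piece against 637 and 466 in the proximal piece. Limma called 0 members.

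Transcription factors of hair cells were among them. ATOH1, required for hair cells in the mouse, had 7.95 and 7.77 RPKM in the middle piece and 44.7 and 18.5 in the proximal piece. The differences were -2.35 and -1.15 (mean -1.75 ± 0.32 SE, limma adjusted p = 0.399). POU4F3, which keeps hair cells alive in the mouse, had 12.04 and 11.98 RPKM against 34.95 and 26.7. GFI1, a zinc finger factor that acts downstream of POU4F3 in the mouse, had 0.102 and 0.461 RPKM against 3.14 and 3.90, and its first-set middle level lies near that of a few reads per kilobase. LHX3, a LIM homeobox factor of hair cells, had 0.593 and 0.532 RPKM in the middle piece and 5.42 and 5.09 in the proximal piece, with nearly equal differences of -2.01 and -1.99 (mean -2.00 ± 0.24 SE, limma adjusted p = 0.226).

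Calcium-binding proteins of hair cells showed the widest gaps of the list. OCM2, an oncomodulin gene, had 3.92 and 1.65 RPKM in the middle piece and 38.4 and 29.4 in the proximal piece, differences of -3.0 and -3.52 (mean -3.26 ± 0.25 SE, limma adjusted p = 0.0780). Both proximal libraries were many times above both middle ones, but reads of near-identical oncomodulin copies could be split by the counting, so the assignment is uncertain. CALB2, which encodes calretinin and is also expressed by neurons, had 15.2 and 8.24 RPKM against 172 and 59.5, differences of -3.41 and -2.71 (mean -3.06 ± 0.31 SE, limma adjusted p = 0.130). CALB1 and PVALB, which encode calbindin and a parvalbumin, were 2 of the 4 members higher in both sets, with differences of 0.49 and 0.60 and of 0.53 and 0.80. The other two were the calcium pump gene ATP2B2 (0.85 and 0.45) and USH1G, a scaffold of the hair bundle (0.45 and 0.58).

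Genes of the hair bundle and of synapses were chosen for naming after their values were seen. ESPNL, an espin-like actin bundler, had 2.76 and 2.19 RPKM in the middle piece and 17.9 and 6.48 in the proximal piece. CHRNA10, a subunit of the acetylcholine receptor through which efferent nerves act on hair cells, had 9.23 and 14.4 RPKM against 70.7 and 29.1. SLC17A8, the vesicular glutamate transporter of hair cells, had 0.0756 and 0.0807 RPKM against 1.49 and 1.23. Each of these genes was lower in the middle piece in both sets. MYO7A, an unconventional myosin of the bundle, had 1.23 and 4.17 RPKM in the middle piece and 1.74 and 8.02 in the proximal piece, and OTOF, the calcium sensor of the hair cell synapse, 2.56 and 8.56 against 4.58 and 11.6. For both the levels of the pieces overlapped between sets, while each set by itself was lower in the middle piece. TMPRSS3, a serine protease gene mutated in human deafness, was listed at 0 and 0.127 RPKM in the middle libraries and at 1.43 and 1.89 in the proximal ones. Of the 28 tested hair cell genes 10 went opposite ways in the sets. Among them were FSCN2 (-0.89 and 0.40), LHFPL5 (-0.66 and 0.37) and USH1C (0.64 and -0.35).

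**Figure D2:**
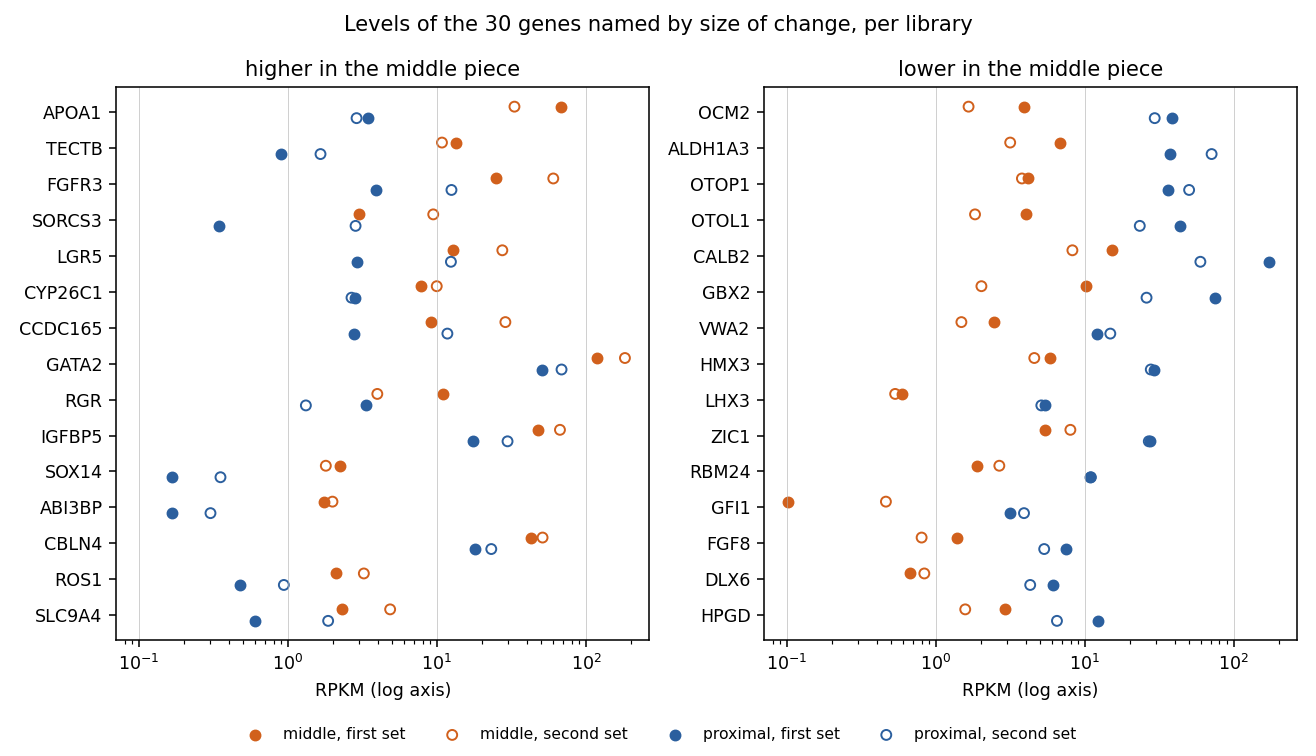
RPKM on a log axis of the 30 genes named by the size of their within-set differences, 15 higher (left) and 15 lower (right) in the middle piece, with middle libraries in orange above proximal ones in blue, filled for the first set and open for the second. APOA1 lies at 67.5 and 33.1 RPKM in the middle piece against 3.45 and 2.88, and OTOL1 at 4.05 and 1.83 against 43.2 and 23.3.

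Of the otoconia and macula genes given here with their levels, all but 1 were lower in the middle piece in both sets. OTOL1 encodes otolin, a matrix protein of otoconia. It had 4.05 and 1.83 RPKM in the middle piece and 43.2 and 23.3 in the proximal piece, with near-equal differences of -3.13 and -3.11 (mean -3.12 ± 0.25 SE, limma adjusted p = 0.0780). OTOP1, a proton channel needed for otoconia in the mouse, had 4.14 and 3.77 RPKM in the middle piece and 35.9 and 50.03 in the proximal piece (-2.84 and -3.42, mean -3.13 ± 0.27 SE, limma adjusted p = 0.0780). Both genes kept their direction in both sets. NOX3 and NOXO1 encode an oxidase and its organizer, which the mouse needs to form otoconia. NOX3 had 0.182 and 0 RPKM in the middle piece and 1.28 and 2.57 in the proximal piece, and NOXO1 5.45 and 3.39 against 9.91 and 8.62. The exception was OC90, whose product otoconin is made by otoconia-forming and tegmental epithelium, at 821 and 723 RPKM against 414 and 591 (0.99 and 0.29). Of 12 tested members of the list 6 were lower in both sets and 1 higher, beside 14.6% and 20.8% of all genes. The sets went opposite ways for 5 members, FGF3, OTOGL, SLC26A4, SPARC and SPARCL1. The 12 genes had medians of -0.33 and -0.58. Their summed level, of which OC90 was a large share, went the other way, at 1545 and 1425 RPKM in the middle piece against 1409 and 1404 in the proximal piece. CA2, the carbonic anhydrase gene of this list, is also a red blood cell gene.

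The distal piece, whose libraries also hold the future lagena with its own macula, separates these genes. OTOL1 had 0.759 and 0.377 RPKM and OCM2 1.85 and 1.22 in the distal libraries, in each set below the middle library. OTOP1 had 40.9 and 70.9 RPKM in the distal libraries, far above the middle ones, and ATOH1 had 40.7 and 31.1. FGF8 had 12.3 and 12.4 RPKM in the distal piece, GFI1 0.949 and 2.03, and FGF20 13.7 and 10.1. In these 5 genes the middle piece held the lowest level of the 3 pieces in both sets, as it did for others such as LHX3 and HMX3. ESPNL (1.43 and 1.22 RPKM distally) lay lower in the distal than in the middle library of each set. POU4F3 (9.55 and 11.8 RPKM distally) did so in the first set, while in the second set it was about level with the middle library (11.98). All of them were named as lower in the middle than in the proximal piece, and no share over all genes is given for this pattern. These comparisons share the middle libraries, so they are not independent of each other.

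**Figure D3:**
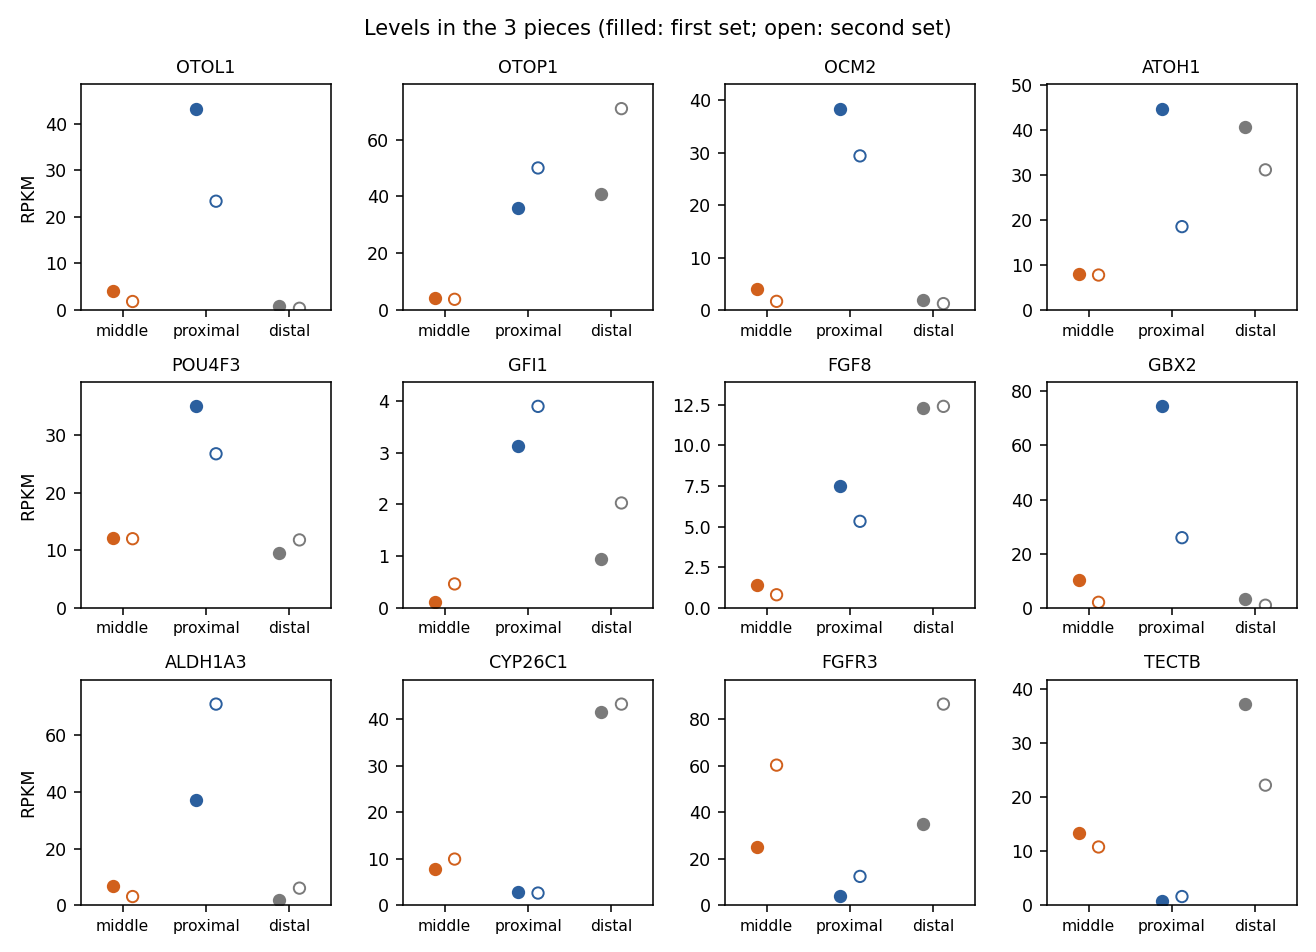
RPKM of 12 genes in the middle, proximal and distal libraries, filled for the first set and open for the second, each panel starting at 0. OTOP1, ATOH1, GFI1 and FGF8 are lowest in the middle piece (FGF8 1.38 and 0.801 RPKM, against 7.52 and 5.33 proximally and 12.3 and 12.4 distally), whereas OTOL1, OCM2 and GBX2 are highest in the proximal piece and CYP26C1, FGFR3 and TECTB in the distal piece.

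Prosensory and supporting cell genes were higher in the middle piece on balance. Both sets had 12 of the 22 tested genes higher and 3 lower, beside 20.8% and 14.6% of all genes, and the medians were 0.42 and 0.11, against 0.17 and -0.02 for all genes. With library medians set equal the counts were 10 and 5, beside 1918 and 2778 of all 12559 genes. FGFR3, an FGF receptor gene of supporting cells, had 25.01 and 60.3 RPKM in the middle piece and 3.90 and 12.5 in the proximal piece (2.41 and 2.18, mean 2.30 ± 0.20 SE, limma adjusted p = 0.0780). Each set showed about the same difference although the level of the gene differed between sets. TECTB, the gene of the tectorial membrane protein beta-tectorin, had 13.4 and 10.8 RPKM against 0.903 and 1.65 (2.92 and 2.15, mean 2.54 ± 0.33 SE, limma adjusted p = 0.235). TECTA, its partner alpha-tectorin, differed far less, with 136 and 216 RPKM in the middle piece and 101 and 153 in the proximal piece.

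LGR5, a receptor for R-spondins that marks a subset of supporting cells in the mouse, had 12.7 and 27.4 RPKM in the middle piece and 2.91 and 12.4 in the proximal piece (1.81 and 1.09). The lower middle level and the higher proximal level nearly met. GJB6, a connexin gene of supporting cells and non-sensory epithelium, had 131 and 143 RPKM against 39.5 and 95.5. PROX1, a homeobox factor of supporting cells, had differences of 0.49 and 1.00, and the Notch ligand gene JAG1 0.64 and 0.15. In the other direction stood HES5, a Notch target gene (-0.57 and -0.67), and LFNG, a modifier of Notch receptors (-0.64 and -0.15).

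APOA1, which encodes the chief apolipoprotein of high-density lipoprotein, had the widest gap of the genes named as higher. Its level was 67.5 and 33.1 RPKM in the middle piece and 3.45 and 2.88 in the proximal piece (3.94 and 3.13, mean 3.54 ± 0.27 SE, limma adjusted p = 0.0780). The distal libraries held 147 and 71.6 RPKM. RGR, an opsin-family receptor gene, had 11.01 and 3.97 RPKM in the middle piece and 3.31 and 1.32 in the proximal piece. IGFBP5, which binds insulin-like growth factors, had 47.3 and 66.9 RPKM against 17.4 and 29.7. CBLN4, a secreted cerebellin-family gene, had 42.4 and 51.1 RPKM against 17.9 and 23.1. The RefSeq table lists the name CBLN4 as a synonym of CBLN3, so which cerebellin gene this entry stands for is uncertain. For RGR the sets differed so much that the levels of the pieces nearly met. SORCS3, a sorting receptor gene, had 3.02 and 9.43 RPKM in the middle piece and 0.343 and 2.84 in the proximal piece, and SOX14, a SOX-family factor gene, 2.22 and 1.79 against 0.166 and 0.352. Also named by size were ABI3BP, an extracellular matrix gene (1.23 and 1.2), the receptor tyrosine kinase gene ROS1 (1.07 and 1.13), the sodium/proton exchanger gene SLC9A4 (1.05 and 1.03) and CCDC165 (1.42 and 1.22).

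Retinoic acid is made from retinal by ALDH1A enzymes and broken down by CYP26 enzymes. Members of each kind went different ways. ALDH1A3 had 6.82 and 3.15 RPKM in the middle piece and 37.0 and 70.8 in the proximal piece (-2.28 and -4.11, mean -3.20 ± 0.53 SE, limma adjusted p = 0.353). The pieces were far apart, but the sets differed in the size of the gap. ALDH1A2, the other synthesis gene tested, had 5.64 and 7.08 RPKM in the middle piece and 3.34 and 10.1 in the proximal piece, and the sets went opposite ways. DHRS3, a retinal reductase gene that lowers the supply of retinal, had 5.60 and 7.83 RPKM against 12.7 and 17.5 (-1.05 and -1.07).

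Among the breakdown enzymes CYP26C1 had 7.81 and 9.96 RPKM in the middle piece and 2.81 and 2.67 in the proximal piece (1.21 and 1.58, mean 1.39 ± 0.22 SE, limma adjusted p = 0.323), and its distal level was 41.5 and 43.2 RPKM. CYP26A1 went the other way, at 0.234 and 0.427 RPKM in the middle piece and 1.88 and 2.06 in the proximal piece. CYP26B1, at 11.9 and 25.5 RPKM against 15.8 and 21.9, did not keep a direction. RDH10, which makes retinal, had 15.1 and 18.6 RPKM in the middle piece and 19.4 and 16.6 in the proximal piece. RDH12 (0.20 and 0.12) and the carotenoid-cleaving BCMO1 (0.54 and 0.12) were slightly higher in both sets, and BCO2 (0.22 and -0.54) was not. Both sets had 3 of the 10 tested enzyme genes higher and 3 lower, beside 20.8% and 14.6% of all genes. Of these 1 and 3 passed a 2-fold difference, beside 0.223% and 0.446% of all genes. The 5 tested genes for retinoid uptake, binding and receptors all lay lower in both sets, beside 14.6% of all genes. Their medians were -0.39 and -0.19, and none had an unadjusted limma p below 0.05 with the block. They were CRABP1 (51.8 and 20.9 RPKM in the middle piece, 58.0 and 35.9 in the proximal piece), RARB, RBP5, RXRG and STRA6, the uptake receptor gene (49.2 and 58.3 RPKM against 78.5 and 66.5).

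BMP ligands bind type I and type II receptors that act through SMAD factors, and secreted antagonists hold the ligands off. Of the 5 ligand genes tested, 2 lay higher and 1 lower in both sets, beside 20.8% and 14.6% of all genes. BMP7 had 28.0 and 52.4 RPKM in the middle piece and 17.0 and 35.7 in the proximal piece (0.69 and 0.54), and BMP5 had 7.36 and 8.18 against 5.10 and 5.28. BMP4 was close to level, at 23.6 and 22.9 RPKM in the middle piece and 25.8 and 21.7 in the proximal piece. BMP2 had 0.750 and 1.77 RPKM against 1.16 and 3.35, and GDF3 18.5 and 40.4 against 36.2 and 40.2.

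The antagonists split. NBL1, a DAN-family antagonist gene, had 94.6 and 62.0 RPKM in the middle piece and 296 and 178 in the proximal piece (-1.63 and -1.5, mean -1.57 ± 0.26 SE, limma adjusted p = 0.353). NOG, which encodes noggin, had 4.56 and 4.05 RPKM against 0.869 and 1.68 (1.57 and 0.91), and BMPER, a gene for a BMP-binding regulator, 12.7 and 18.3 against 5.72 and 7.68 (1.03 and 1.15). Each of these kept its direction in both sets. FSTL3 (-1.27 and -0.34), TWSG1 (-0.68 and -0.37), CHRDL1 (-0.21 and -0.76) and SOSTDC1 (-0.16 and -0.39) were lower in both sets. Of 7 tested antagonists 2 were thus higher and 5 lower in both sets, beside 20.8% and 14.6% of all genes.

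Among BMP receptors, SMADs and targets, 11 of 19 tested genes lay higher in both sets and 4 lower, beside 20.8% and 14.6% of all genes. The medians were 0.18 and 0.52, against 0.17 and -0.02 for all genes, so the first-set median was about that of all genes. With library medians set equal, 8 were higher and 3 lower in both sets, beside 1918 and 2778 of all 12559 genes. The first-set median turned to -0.07, as did that of all genes. GATA2, a zinc finger factor gene regulated by BMP, had 119 and 183 RPKM in the middle piece and 50.6 and 68.5 in the proximal piece (1.22 and 1.4, mean 1.31 ± 0.20 SE, limma adjusted p = 0.307). GATA3, its relative needed for the mouse cochlea, had 171 and 240 RPKM against 113 and 111. BAMBI, a pseudoreceptor gene induced by BMP, had 79.5 and 55.1 RPKM in the middle piece and 39.3 and 30.2 in the proximal piece. SMAD9, which carries the BMP signal, had 3.76 and 12.3 RPKM against 1.86 and 6.75, and the inhibitory SMAD7 had differences of 0.42 and 0.52. The receptor gene BMPR1B was lower in both sets, at 3.40 and 4.66 RPKM in the middle piece and 4.32 and 10.3 in the proximal piece.

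Transcription factors that pattern the ear were divided. In both sets 12 of the 32 tested genes lay higher and 15 lower, beside 20.8% and 14.6% of all genes. By at least 2-fold 1 was higher and 5 were lower in both sets, beside 0.223% and 0.446% of all genes. GBX2, a homeobox factor that the mouse needs for dorsal inner ear structures, had 10.2 and 2.02 RPKM in the middle piece and 74.5 and 25.9 in the proximal piece (-2.75 and -3.16, mean -2.95 ± 0.27 SE, limma adjusted p = 0.0924). HMX3, a homeobox factor of the vestibular ear in the mouse, had 5.81 and 4.57 RPKM against 29.0 and 27.7 (-2.14 and -2.36). DLX6 had 0.669 and 0.835 RPKM against 6.15 and 4.29. These 3 factors shared a wide gap in both sets. DLX5, a related factor of the vestibular ear, had a smaller one, at 13.9 and 10.6 RPKM in the middle piece and 23.4 and 16.1 in the proximal piece. ZIC1, a zinc finger factor gene, had 5.35 and 7.98 RPKM against 27.5 and 26.8, and PAX2 15.1 and 26.5 against 37.2 and 61.3. EMX2, a homeobox factor, was higher in the middle piece, at 80.9 and 88.6 RPKM against 48.2 and 51.7 (0.73 and 0.76), and OTX2 had 22.0 and 23.9 against 11.8 and 20.6.

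FGF signals pass from ligands to tyrosine kinase receptors and are read out by targets such as DUSP6. In both sets 7 of the 28 tested genes lay higher and 10 lower, beside 20.8% and 14.6% of all genes. FGF8, the ligand that mammalian inner hair cells send to their neighbours, had 1.38 and 0.801 RPKM in the middle piece and 7.52 and 5.33 in the proximal piece (-1.84 and -1.81, mean -1.83 ± 0.24 SE, limma adjusted p = 0.235). FGF20, needed for part of the organ of Corti in the mouse, had 6.55 and 4.56 RPKM against 13.7 and 10.1. Both ligand genes were lower in the middle piece in both sets. FGF18 went the other way, at 4.38 and 4.49 RPKM in the middle piece and 1.70 and 1.74 in the proximal piece. FGFR2 was higher along with FGFR3 (25.97 and 51.3 RPKM against 6.59 and 29.1), and the feedback gene DUSP6 was lower (-1.47 and -0.58).

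Wnt pathway genes showed no common direction. In both sets 18 of 44 tested members were higher and 12 lower, beside 20.8% and 14.6% of all genes. WNT2B had 0.918 and 0.572 RPKM in the middle piece and 8.69 and 3.13 in the proximal piece, and WNT16 0.348 and 0.458 against 2.09 and 2.04. WNT7A, a ligand gene of the cochlear epithelium, had 10.0 and 9.51 RPKM against 3.58 and 4.75, and the receptor gene FZD10 11.4 and 18.5 against 3.36 and 8.85. The first pair was thus lower and the second pair higher in the middle piece in both sets.

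**Figure D4:**
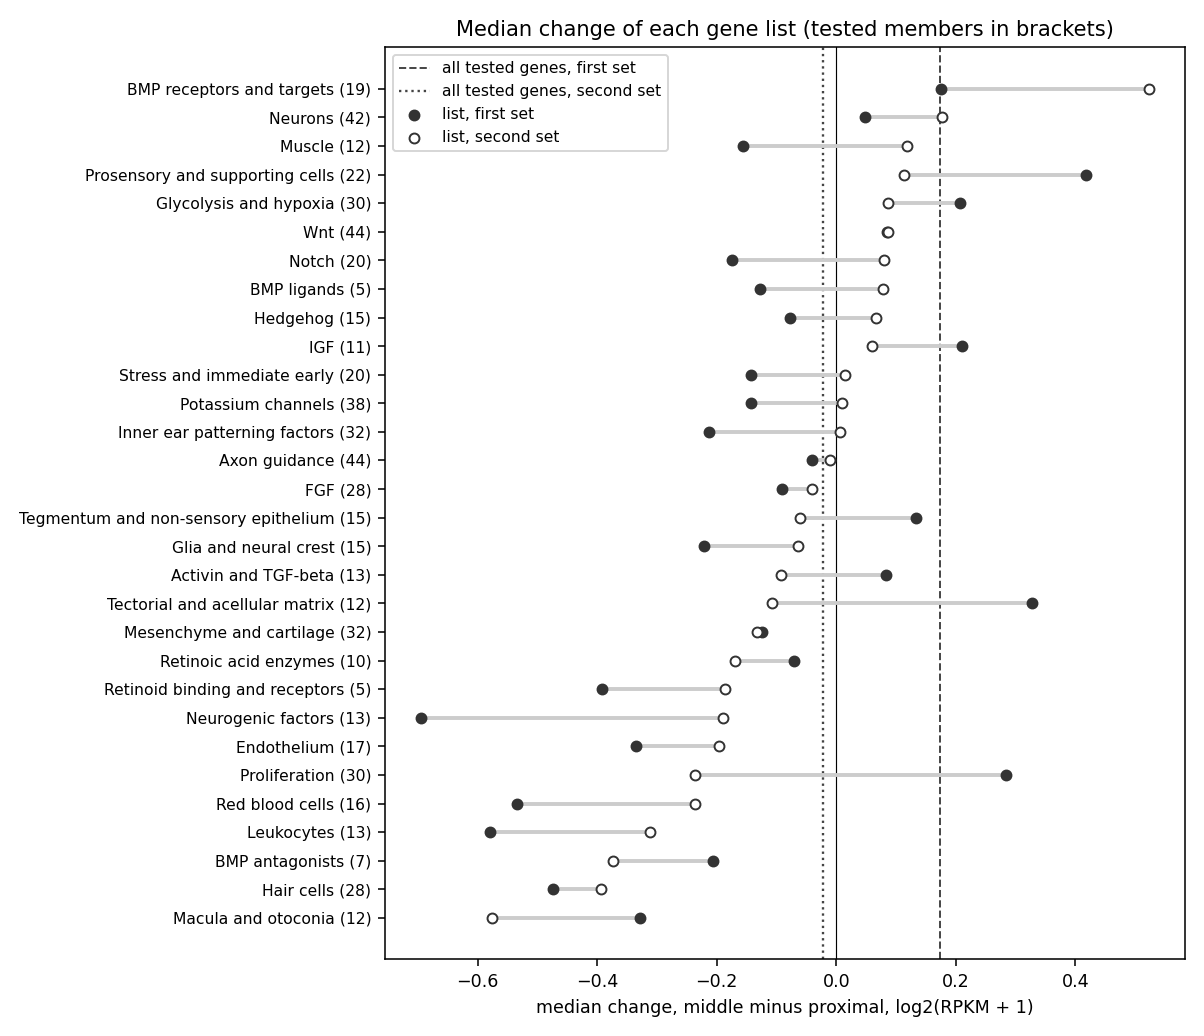
Median difference (middle minus proximal, log2(RPKM + 1)) of the tested members of each gene list in the first set (filled) and the second set (open), with the medians of all 12559 tested genes as dashed (0.17) and dotted (-0.02) lines. Hair cell genes lie below 0 in both sets (-0.47 and -0.39), and prosensory and supporting cell genes above 0 (0.42 and 0.11).

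Neurogenic factor genes were lower on balance, and neuron genes had no common direction in the sums. Of 13 tested neurogenic factors 7 were lower in both sets and 1 higher, beside 14.6% and 20.8% of all genes, and 5 went opposite ways. The medians were -0.69 and -0.19. Summed levels were 141 and 211 RPKM in the middle piece against 274 and 224 in the proximal piece, so the second-set sums were close. TLX3, a homeobox factor of sensory neurons, had 1.19 and 1.69 RPKM in the middle piece and 10.5 and 4.98 in the proximal piece, and TLX1 1.25 and 0.260 against 3.77 and 6.26. NEUROD1, which drives the formation of cochlear and vestibular neurons, had 30.5 and 24.9 RPKM against 81.1 and 34.8, and NHLH1 29.4 and 30.5 against 83.0 and 40.2. For NEUROD1 and NHLH1 the gap was wide in the first set and small in the second. Neuron genes had 17 of 42 higher in both sets and 6 lower. With library medians set equal they had 11 and 8, beside 1918 and 2778 of all 12559 genes, and a first-set median of -0.20 in place of 0.05. Among the higher ones was the neurotrophin receptor gene NTRK2, at 10.4 and 36.1 RPKM against 5.12 and 20.3. The neuron list summed to 3052 and 3500 RPKM in the middle piece and 4056 and 3093 in the proximal piece, so the sets went opposite ways.

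Ion transport genes differed singly. ATP1B1, a sodium pump subunit gene of secretory epithelium, had 99.7 and 99.9 RPKM in the middle piece and 176 and 181 in the proximal piece (-0.82 and -0.85, mean -0.84 ± 0.19 SE, limma adjusted p = 0.550). The libraries of each piece were close to each other and the gap was about the same in both sets. KCNMB4, the beta subunit of the large-conductance calcium-activated potassium channel, had 23.8 and 17.8 RPKM in the middle piece and 13.1 and 5.24 in the proximal piece. KCNJ2, an inward rectifier gene, had 1.07 and 2.32 RPKM against 2.51 and 4.54. Potassium channel genes had 6 of 38 tested members higher in both sets and 9 lower, or 15.8% and 23.7%, beside 20.8% and 14.6% of all genes. KCNMA1, the pore gene of the same large-conductance channel, differed by -0.20 and -0.24.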

How the data were processed

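RNA was measured in 6 libraries, 2 per piece. Per the labels' protocols, polyadenylated RNA was selected on oligo-dT beads and sequenced on an Illumina HiSeq instrument, with 1 of 2 Illumina kits, and no source used here says which kit made which library. The authors deposited RPKM values per gene. TopHat 1.4.0 and Partek 6.6 are the tools named, per the submitters' processing notes. Build, annotation and use of strand in counting stay unstated, so no coordinates are printed, and overlapping or antisense genes could share reads. Columns of the table name region and set, not the sample record. The entry holding the number of alignments was kept out of all tests. Gene names are the table's. Of 160 named genes, 150 had their symbol in the RefSeq table of GRCg7b, used for names only, and 6 were synonyms there.

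Values were set to log2(RPKM + 1), which understates differences of low genes, and genes with at least 1 RPKM in at least 2 of the 6 libraries were tested. Limma 3.58.1 in R 4.3.3 was fitted over all 6 libraries with region as a factor and a trended prior, two-sided, with Benjamini-Hochberg adjustment over 12559 genes. It was fitted without a set term (3 residual degrees of freedom) and with the set as a replicate block (2). The pairing comes from the column names: across genes the difference between sets correlated at 0.659 between middle and proximal, 0.655 between proximal and distal and 0.885 between middle and distal, all above 0.1. The scripts were tested on simulated data. Figures were drawn with matplotlib 3.10.9.

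Genes named are the 15 per direction with a symbol and the largest smaller within-set difference, at least 1 in size, up to 4 per list, all tested BMP ligands, BMP antagonists and retinoic acid enzymes, genes with opposite sets, tissue markers, and further genes chosen after their values were seen (TMPRSS3, PAX2, EMX2, OTX2, DLX5, FGFR2, WNT7A, BMPR1B, NEUROD1, NHLH1 and the hair cell genes ATOH1, POU4F3, ESPNL, CHRNA10, SLC17A8, MYO7A and OTOF, as well as further list members given by their differences). Not every gene that these rules give is described above. Among the 15 lower genes this holds for VWA2 (-1.93 and -2.67), RBM24 (-2.03 and -1.71) and HPGD (-1.76 and -1.54). The 30 lists and the rule were chosen with earlier results of these data known. Other filters, pseudocounts, scalings, library subsets and left-out libraries were tried.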

Additional observations from a re-analysis of the deposited data

How the results depend on the processing

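Without the block, limma called 0 genes in each direction under each alternative run, and the replicate block changed no call. With the replicate block, quantile normalization gave 1 higher (APOA1) and 2 lower (CALB2 and OTOL1), and a fit to the middle and proximal libraries alone, with 1 residual degree of freedom, gave 37 higher and 50 lower. Leaving out 1 library, where the lone library of a piece is assumed to vary like the others, gave 8 to 3586 higher and 11 to 2009 lower. Both highest counts came without the second-set proximal library, and the cause was not tested. Without the first-set proximal library, which stood apart, 30 were higher and 19 lower. The 28 and 56 genes at least 2-fold higher and lower in both sets became 75 and 96 with a pseudocount of 0.1, and 36 were lower at a minimum of 5 RPKM. The second set alone gave 57 and 95 and the first set alone 1038 and 574, alternatives chosen after seeing the data. A left-out library ends the within-set comparison, so no such count was made. List medians turned sign for 5 of 30 lists under quantile normalization and 8 with equal library medians. The 30 genes named by size kept their sign under all 8 alternatives. They were chosen for same-sign differences of at least 2-fold in both sets, so a kept sign adds no support. Signs turned for 10 of the 160 named genes, among them GADD45B (-0.59 as fitted), which was lower in both sets. ALDH1A2 (0.08 as fitted) was -0.0822 under quantile normalization, -0.038 with equal library medians and -0.56 to 0.72 with a library left out. CDH1 was -0.041 with equal medians and -0.32 to 0.47 with a library left out, and TMEM93 0.13 under quantile normalization and -1.04 to 0.81. With a library left out the ranges were -0.14 to 0.72 for EPCAM, -0.045 to 0.62 for SOX2, -0.16 to 0.11 for BMP4, -0.44 to 0.27 for CYP26B1, -0.32 to 0.13 for RDH10, -0.45 to 0.13 for BCO2 and -1.21 to 0.033 for GADD45B. Depth limits the first set most, and the lowest levels there rest on few reads.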

Other observations

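Proliferation genes went different ways in the sets. All 30 tested members were lower in the middle piece in the second set, by -0.02 to -0.40, and also under quantile normalization and with equal library medians. Of all 12559 tested genes 6815 were lower in that set. In the first set 12 of the 30 were lower, beside 4949 of all tested genes, and the median was 0.28 in the first set and -0.24 in the second. PCNA, the sliding clamp of DNA replication, had 294 and 166 RPKM in the middle piece and 365 and 187 in the proximal piece. Limma called 0 members.

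Glycolysis and hypoxia genes had 12 of 30 higher in both sets and 4 lower, beside 20.8% and 14.6% of all genes. Their medians were 0.21 and 0.09, against 0.17 and -0.02 for all genes. With library medians set equal the counts were 9 and 6, beside 1918 and 2778 of all 12559 genes. LDHA, which encodes lactate dehydrogenase A, had 74.1 and 44.4 RPKM in the middle piece and 47.0 and 31.0 in the proximal piece. Among axon guidance genes the netrin gene NTN1 had 10.1 and 11.5 RPKM in the middle piece and 22.0 and 22.3 in the proximal piece, and the ephrin gene EFNB2 9.39 and 25.01 against 3.36 and 15.6. Of the 28 entries at least 2-fold higher in both sets 12 carry no gene symbol, and of the 56 lower ones 7.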
